A study of Homo sapiens with 8 samples.

Results

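The chromosome 18 probe sets of the Affymetrix Human Transcriptome Array were compared between A375 cells with a PLK1 knockdown (shPLK1) and their nonsense control (shNS). Members were the rows whose ID carries the prefix of an exon probe set (PSR) or an exon junction probe set (JUC), the chromosome code 18 and a 6-digit number, with no haplotype or random name. There were 6900 exon probe sets of 573909 on the array and 4154 junction probe sets of 339146, together 11054 rows. The chromosome was picked because its signals differed between these same arrays, so every difference between shPLK1 and shNS below is a description and no p-value is given for it.

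A375 is an established human melanoma cell line. The 4 shPLK1 arrays come from A375 carrying a doxycycline-inducible shRNA against PLK1, the mitotic polo-like kinase. The 4 shNS arrays come from A375 carrying an inducible nonsense shRNA, and both lines received doxycycline for 48 h. The Methods describe shNS and shPLK1 lines as polyclonal pools under puromycin selection. The cells used for the arrays had been made in earlier work, and whether they were such pools is not stated there. The shRNA and the history of each line cannot be told apart. The labels call the arrays of a group biological replicates, and with 1 cell line per group their spread is that between samples of a line. The Methods name triplicates, while the labels list 4 arrays per group, and all 8 were used. The value matrix carries no gene names, so the fall of PLK1 RNA and the melanocytic markers of A375 were not checked there. None of 6 melanocytic markers is in the deposited table of changed clusters, and whether PLK1 is in that table is not reported here.

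An exon probe set gathers probes inside 1 stretch of an exon, whereas a junction probe set spans the splice between a pair of exons and so reports spliced RNA. Chromosome 18 is poor in genes for its length. It carries DCC, the netrin receptor first known as a gene lost in colorectal carcinoma, the apoptosis inhibitor BCL2, SMAD2 and SMAD4, which carry TGF-β signals, their inhibitor SMAD7, N-cadherin (CDH2) and the desmosomal cadherins. Bulk RNA cannot separate more RNA per cell from more cells that make it.

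Chromosome 18 exon probe sets spanned mean log2 signals of 1.29 to 13.6 over the 8 arrays, with a median of 5.21 against 5.47 on the other 22 chromosomes (1 to 22 and X). A mean signal of at least 7 was reached by 1828 exon probe sets (26.5%) and 1147 junction probe sets (27.6%), against 29.0% and 29.5% elsewhere. At this level the median within-group SD was 0.165 for chromosome 18 exons and 0.159 for exons elsewhere, and 0.211 and 0.206 for junctions. Of the members, 67 exon and 36 junction probe sets hold the same 8 values as a row before them, and they were not removed. Over all exon probe sets Pearson's r was 0.986 to 0.991 among shPLK1 arrays, 0.988 to 0.991 among shNS arrays and 0.979 to 0.985 between groups. Over chromosome 18 exons alone the range was 0.986 to 0.991 among shPLK1 arrays and 0.986 to 0.989 among shNS arrays, and 0.965 to 0.975 between groups. These are correlations across probe sets, which are not independent replicates.

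Signals of chromosome 18 were higher in every shPLK1 array than in every shNS array. To get the shift of an array, each signal at level 7 or more was set against its own average over the 8 arrays, the median was taken over chromosome 18, and the median over all 23 chromosomes was subtracted. For exons it was 0.17, 0.18, 0.25 and 0.16 log2 units in shPLK1 arrays 1 to 4, against -0.17, -0.19, -0.23 and -0.15 in shNS arrays 1 to 4. The groups did not overlap, and array 3 was the farthest from 0 in both. The group means were 0.19 ± 0.04 in shPLK1 and -0.19 ± 0.04 in shNS (SD, n = 4 arrays each), a difference of 0.38 or 1.30-fold.

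Junction probe sets, which need spliced RNA, showed a shift of similar size. It was 0.19, 0.20, 0.28 and 0.18 log2 units in shPLK1 arrays 1 to 4, against -0.18, -0.20, -0.25 and -0.18 in shNS arrays 1 to 4. Again no array of one group reached the other. The junction means were 0.21 ± 0.05 in shPLK1 and -0.21 ± 0.03 in shNS (SD, n = 4 arrays each), a difference of 0.42 or 1.34-fold. Over probe sets of all levels the difference was 0.17 for exons and 0.24 for junctions.

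**Figure D1:**
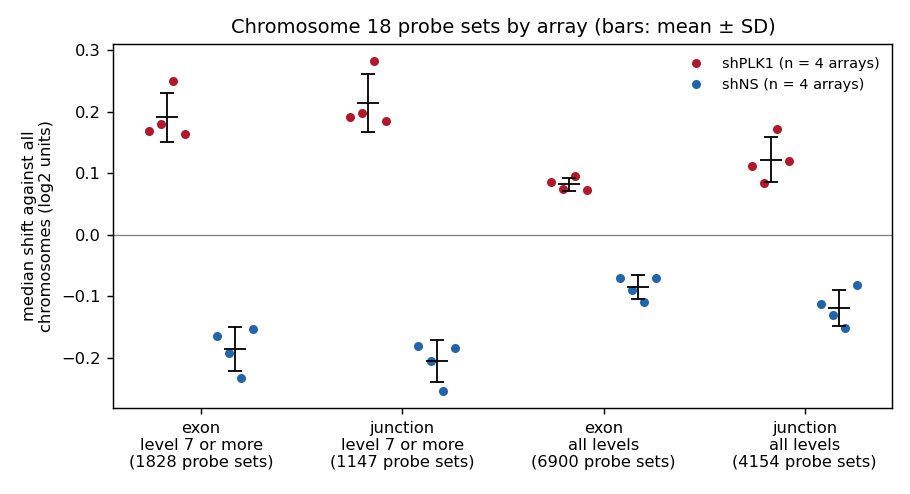
Median shift of chromosome 18 probe sets against all chromosomes (y axis, log2 units) for each array, in 4 sets of probe sets (x axis), with shPLK1 in red and shNS in blue and bars for mean ± SD over 4 arrays. All 4 shPLK1 arrays lie above 0 and all 4 shNS arrays below 0 in every set, and the gap is widest for junctions at level 7 or more, with means of 0.21 and -0.21.

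Set beside the other chromosomes by the same measure, chromosome 13 had the opposite sign, with -0.25 for exons and -0.29 for junctions. The remaining 21 chromosomes lay between -0.07 and 0.09 for exons and between -0.08 and 0.10 for junctions. Of chromosome 18 exons at level 7 or more, 1491 of 1828 (81.6%) had a higher mean in shPLK1, against 48.6% of exons on the other 22 chromosomes. Of the junctions 927 of 1147 (80.8%) did, against 48.0% elsewhere.

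The difference depended on how bright a probe set was. Among chromosome 18 exons with a mean log2 signal under 3, which is near the median of 2.98 of the 23 background control rows, the median difference was 0.02 and 53.9% of 1571 were higher in shPLK1. It was 0.07 at levels 3 to 5 (60.1% of 1683), 0.14 at 5 to 7 (69.3% of 1818), 0.39 at 7 to 9 (80.8% of 1271) and 0.38 at 9 and more (83.3% of 557). On the other 22 chromosomes the medians of these 5 classes lay within 0.02 of 0. So dim chromosome 18 exons differed little and the bright ones by nearly the same amount in both upper classes. Junctions gave 0.00 under 3, 0.14 at 3 to 5, 0.23 at 5 to 7, 0.42 at 7 to 9 and 0.45 at 9 and more. The background control rows themselves had mean signals of 1.36 to 10.8, so their median is a guide and not a single floor. They differed by -0.09 to 0.07 between shPLK1 and shNS.

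**Figure D2:**
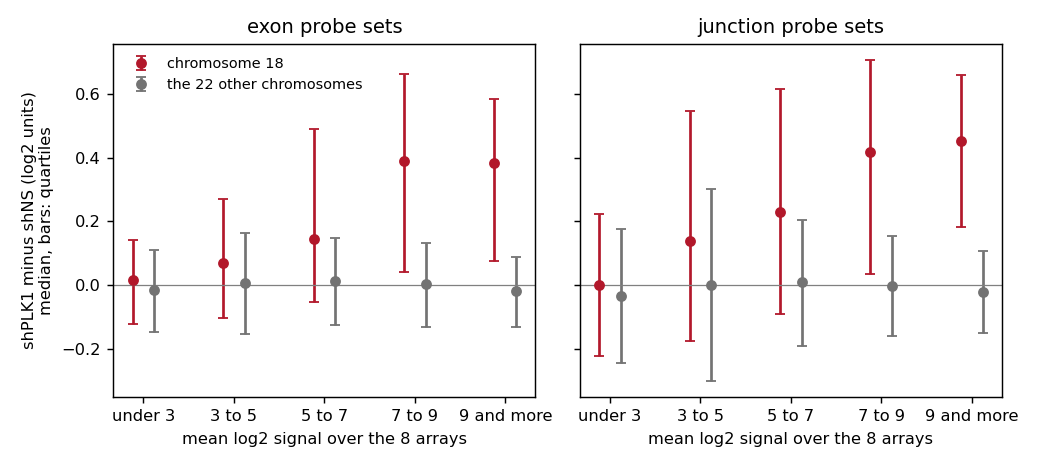
Difference between shPLK1 and shNS (y axis, log2 units) by mean log2 signal over the 8 arrays (x axis), exons on the left and junctions on the right, with medians as points and quartiles as bars for chromosome 18 (red) and the 22 other chromosomes (grey). For exons the chromosome 18 median is 0.02 under a level of 3 and 0.39 at 7 to 9, while the grey medians stay within 0.02 of 0.

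Along the ID numbers the difference was not even, and it came in steps. The exon probe sets were ordered by ID number and cut into 24 bins of 287 or 288. The median over probe sets at level 7 or more, less that over all chromosomes, was above 0 in 23 bins and above 0.3 in 16, with a lowest value of -0.09 in bin 12 and a highest of 0.70 in bin 7. On the other 22 chromosomes, 0 of 528 bins made the same way passed 0.3 with at least 10 probe sets at that level, and the highest was 0.22. Only increases were counted, so decreases, the direction of chromosome 13, are not covered. These bin medians carry no test. The bins fell into stretches, which were drawn after the bin values were seen.

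In the first stretch, bins 1 to 3 with IDs 1 to 1013, the shift was 0.01, 0.02, 0.03 and 0.05 log2 units in shPLK1 arrays 1 to 4, against -0.03, -0.04, -0.03 and -0.01 in shNS arrays 1 to 4. That is a difference of 0.06 over 292 probe sets, or 1.04-fold, and 58.9% of them were higher in shPLK1. The second stretch, bins 4 to 9 with IDs 1014 to 3062, gave 0.28, 0.26, 0.36 and 0.24 in shPLK1 arrays against -0.24, -0.28, -0.37 and -0.24 in shNS arrays. Here the difference was 0.56, or 1.48-fold, and 93.1% of 612 probe sets were higher in shPLK1. The quartiles of single probe sets in this stretch were 0.32 and 0.83. Its bins were joined because their medians were high, so the high share and quartiles largely follow from the choice.

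A low and a high stretch followed again. In bins 10 to 12, IDs 3063 to 4054, the shift was 0.00, 0.03, 0.03 and 0.00 in shPLK1 arrays against 0.00, 0.00, -0.04 and -0.02 in shNS arrays, a difference of 0.03 over 190 probe sets. In bins 13 to 18, IDs 4055 to 6071, it was 0.22, 0.23, 0.32 and 0.22 in shPLK1 arrays against -0.23, -0.26, -0.29 and -0.18 in shNS arrays. The difference was 0.49, or 1.40-fold, and 94.8% of 535 probe sets were higher in shPLK1. The quartiles of single probe sets were 0.31 and 0.69, with the same limit from the choice of bins. In bins 19 to 24, IDs 6072 to 7865, 199 of 1725 probe sets (11.5%) reached level 7, against 35.5% in bins 4 to 9. The difference there was 0.23, and single bins ranged between 0.00 and 0.57.

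Some detail was visible inside the stretches. Within the low stretch of bins 10 to 12, the middle bin (IDs 3399 to 3730) stood at 0.28 while its neighbours stood at 0.01 and -0.09. Within bins 4 to 9, the highest values lay in IDs 2204 to 2370, with a median of 0.89 over 76 probe sets when 48 bins were used. The change at the start of the second stretch passed through an intermediate bin on that finer scale, with 0.04 at IDs 672 to 854, 0.25 at IDs 855 to 1013 and 0.61 at IDs 1014 to 1184. Single rows were higher before the bin edge, for example PSR18001000.hg.1 at 0.50 and PSR18001004.hg.1 at 0.59, so the edge at ID 1014 comes from the bins and does not place the change. At the next rise, IDs 3886 to 4054 had -0.07 and IDs 4055 to 4212 had 0.58.

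Junction probe sets, which have a numbering of their own, also began low and then stood high, but their later course differed in detail. Bins 1 to 3 (IDs 1 to 527) differed by 0.04 and bins 4 to 11 (IDs 528 to 1960) by 0.60, or 1.51-fold. Bins 12 to 15 (IDs 1961 to 2666) differed by 0.11 together but were uneven, at 0.31, -0.12, 0.36 and -0.04. Bins 16 to 24 (IDs 2667 to 5344) differed by 0.49, or 1.40-fold, with single bins between 0.40 and 0.64. When 48 bins were used this last part was less even. It held 0.09 at IDs 2667 to 2752 over 29 junctions and 0.03 at IDs 4057 to 4144 over 19, and rose to 0.71 at IDs 3971 to 4056. Among the 24 junction bins, values ranged from -0.12 in bin 13 to 0.90 in bin 9, where 67 of 67 probe sets at level 7 or more were higher in shPLK1. Inside the first stretch, IDs 176 to 262 stood out at 0.52 over 28 junctions while the runs on either side stood at -0.05 and -0.01.

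**Figure D3:**
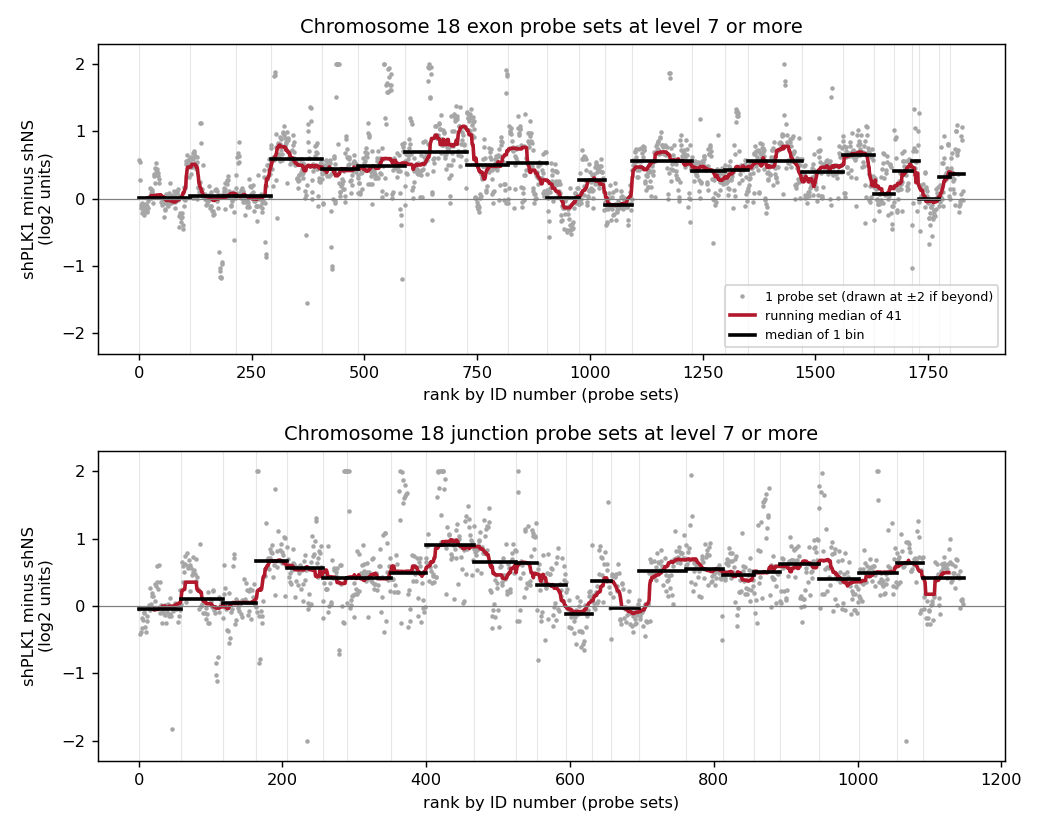
Difference between shPLK1 and shNS (y axis, log2 units) for chromosome 18 probe sets at level 7 or more in order of ID number (x axis, rank), exons above and junctions below, with single probe sets in grey (beyond 2 units drawn at the edge), the running median of 41 in red and the median of each of 24 bins in black. The exon stretches stand at 0.06, 0.56, 0.03 and 0.49 before the mixed last bins, and the junction stretches at 0.04, 0.60, 0.11 and 0.49, with junction bins 12 to 15 alternating between 0.31, -0.12, 0.36 and -0.04.

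The level of signal mattered within the high stretches as well. In exon bins 4 to 9 the median difference was -0.01 under a level of 3, 0.11 at 3 to 5, 0.38 at 5 to 7, 0.56 at 7 to 9 and 0.52 at 9 and more. In exon bins 1 to 3 it lay between 0.03 and 0.06 in all 5 classes. In the low stretch of bins 10 to 12 it was 0.01 at 7 to 9, against 0.51 at that level in the high stretch of bins 13 to 18. The stretches were drawn from probe sets at level 7 or more. Contrasts between stretches at those levels, and the high medians of the upper classes in bins 4 to 9, therefore largely follow from the choice.

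Each exon probe set was also fitted with limma across all exon probe sets of the array, with Benjamini-Hochberg adjustment. At an adjusted p under 0.05, 1015 chromosome 18 exons were higher in shPLK1 and 134 lower, where 1.99% of all exon probe sets were higher and 2.2% lower. Because the chromosome was chosen for this contrast, nothing is read from these shares. Of the calls, 471 higher and 48 lower lay in bins 4 to 9 (27.3% and 2.78% of the exons there). Bins 13 to 18 held 369 higher and 35 lower (21.4% and 2.03%). Bins 1 to 3 held 62 higher and 22 lower (7.18% and 2.55%), and bins 10 to 12 held 34 and 21 (3.94% and 2.44%). In bins 19 to 24 there were 79 and 8 (4.58% and 0.464%). The Results and Methods of the study name different limits on p, 0.05 with a fold above 2 and 0.01, and do not say whether p was adjusted. With the first, taken here as unadjusted, 346 exons were higher and 98 lower (0.817% and 1.05% over the array).

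Among junctions fitted likewise, 280 were higher in shPLK1 and 55 lower, where 0.897% of all junction probe sets were higher and 1.01% lower. The higher count moved with the setting and with single arrays. It was 126 with the replicate number as a block, 462 with probe sets under the median level left out and 429 when exons and junctions were fitted together. It was 163 without shNS array 3, 169 without shPLK1 array 3, 177 without shNS array 1 and 184 without shPLK1 array 2. With the same limits 339 junctions were higher and 89 lower (1.38% and 1.53% over the array). The 4 shPLK1 values lay wholly above the 4 shNS values in 1560 exons (22.6%) and wholly below in 250 (3.62%), beside 4.89% and 5.31% of exons over the array. For junctions these counts were 816 (19.6%) and 122 (2.94%), beside 3.84% and 4.23%.

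Single probe sets reached far larger differences than the chromosome as a whole. PSR18001547.hg.1 had log2 signals of 8.33, 8.30, 8.24 and 8.05 in shPLK1 arrays 1 to 4, against 2.91, 2.69, 2.34 and 2.34 in shNS arrays 1 to 4. All shNS values lay under the background controls' median of 2.98, so the difference of 5.66 (standard error 0.15 from limma) depends on the background and is no exact size. The rows on either side, PSR18001546.hg.1 and PSR18001548.hg.1, differed by 0.01 and -0.25 at mean levels of 1.88 and 2.93. PSR18001549.hg.1, the row after these, differed by 1.51 at a mean level of 7.02.

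The other large exon increases lay side by side. Their shNS means, 2.19 to 3.15, were also near the background controls' median, so their differences are no exact sizes either. PSR18000952.hg.1 had 7.91, 7.60, 7.99 and 8.17 in shPLK1 arrays, against 3.32, 3.10, 2.63 and 3.56 in shNS arrays, a difference of 4.77. PSR18000954.hg.1 had 6.76, 6.45, 7.03 and 6.83 in shPLK1 arrays, against 2.39, 2.10, 1.94 and 2.32 in shNS arrays, a difference of 4.58. For PSR18000955.hg.1 the values were 7.63, 7.26, 7.23 and 7.51 in shPLK1 arrays, against 2.19, 2.19, 4.0 and 1.54 in shNS arrays, where array 3 stood above the rest of its group. Its difference was 4.93. From PSR18000948.hg.1 to PSR18000959.hg.1 every row differed by at least 2.46 except PSR18000951.hg.1, at 0.13. These rows lie at the end of the first low stretch, before bin 4, and their mean levels were all under 7, so they do not enter the bin medians.

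Decreases were fewer but also came in neighbouring rows. PSR18004288.hg.1 had 2.41, 2.15, 2.50 and 2.36 in shPLK1 arrays, against 6.27, 5.94, 6.14 and 6.53 in shNS arrays, a difference of -3.87. PSR18004290.hg.1, close to it in ID order, had 1.75, 1.60, 1.63 and 1.60 in shPLK1 arrays, against 4.88, 4.98, 4.78 and 5.45 in shNS arrays, a difference of -3.38. In both the shPLK1 arrays were under the background controls' median, which limits these sizes too. PSR18003224.hg.1 had 4.29, 4.31, 4.62 and 3.74 in shPLK1 arrays, against 8.07, 7.77, 7.43 and 7.49 in shNS arrays, a difference of -3.45. PSR18003231.hg.1, in the same part of the numbering, had 5.14, 4.75, 5.44 and 4.27 in shPLK1 arrays, against 7.56, 8.02, 8.13 and 8.05 in shNS arrays, a difference of -3.04. These 2 exons lie in a low stretch, while the first 2 lie in a high one.

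The junction with the largest increase, JUC18000551.hg.1, had 6.31, 6.70, 6.89 and 7.84 in shPLK1 arrays, against 2.60, 4.02, 2.32 and 1.72 in shNS arrays, a difference of 4.27. JUC18000573.hg.1 differed by 4.17, with means of 6.64 ± 0.31 in shPLK1 and 2.47 ± 0.62 in shNS (SD, n = 4 arrays each). On the other side JUC18002898.hg.1 differed by -4.14, with 1.74 ± 0.24 in shPLK1 and 5.87 ± 0.16 in shNS, and JUC18002174.hg.1 by -3.84, with 2.78 ± 0.76 in shPLK1 and 6.62 ± 0.28 in shNS (SD, n = 4 arrays each). All 12 probe sets of this kind were picked from those whose groups did not overlap, so their separation follows from the choice. In the 4 junctions the lower group's mean lay between 1.74 and 2.78, under the background controls' median of 2.98, so their differences and their order depend on the background.

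**Figure D4:**
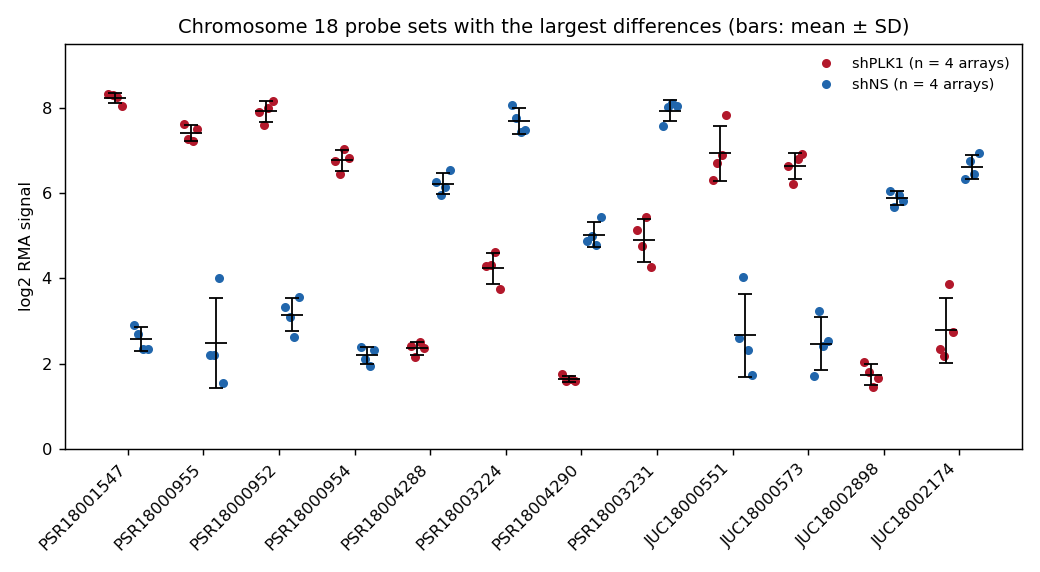
Log2 RMA signal (y axis) of the 8 exon and 4 junction probe sets with the largest differences (x axis), with 1 point per array, shPLK1 in red and shNS in blue, and bars for mean ± SD over 4 arrays. In each probe set the lower group has a mean of 4.90 or less, and in PSR18001547.hg.1 the means are 8.23 in shPLK1 and 2.57 in shNS.

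Runs of consecutive rows that all differed by more than 1 log2 unit in 1 direction were also listed, since exons of 1 locus can be numbered together. Among exons 36 runs of 3 rows or more were higher in shPLK1 and 11 lower, and among junctions 26 and 7. Such runs were not counted on the other chromosomes, so these counts cannot be set against the rest of the array. The longest exon run held the 15 rows between PSR18001912.hg.1 and PSR18001926.hg.1. Its median signal was 9.33, 8.99, 9.12 and 9.22 in shPLK1 arrays 1 to 4, against 7.49, 7.52, 7.02 and 7.57 in shNS arrays 1 to 4. Both groups were far above the background controls' median, and the median difference of the rows was 1.68 (range 1.11 to 1.99).

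Next came 13 rows from PSR18002370.hg.1 to PSR18002382.hg.1, with a median difference of 1.20 and run medians of 8.91 ± 0.22 in shPLK1 and 7.58 ± 0.13 in shNS (SD, n = 4 arrays each). A run of 11 rows from PSR18002164.hg.1 to PSR18002174.hg.1 differed by 1.86, and another of 11 rows from PSR18005269.hg.1 to PSR18005281.hg.1 by 1.68. These 4 runs lie inside the high stretches of the ID order, and in each of them every row had groups that did not overlap. Rows of a run were picked for differing by more than 1 log2 unit, so this separation largely follows from the choice.

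Among the lower runs, 13 rows from PSR18001222.hg.1 to PSR18001234.hg.1 differed by a median of -1.57, with run medians of 3.99 ± 0.30 in shPLK1 and 5.67 ± 0.13 in shNS (SD, n = 4 arrays each). The 11 rows from PSR18005855.hg.1 to PSR18005866.hg.1 differed by -1.76, with 4.08 ± 0.20 in shPLK1 and 5.85 ± 0.19 in shNS, and the 5 rows from PSR18004284.hg.1 to PSR18004290.hg.1 by -2.56, with 2.91 ± 0.29 in shPLK1 and 5.59 ± 0.36 in shNS (SD, n = 4 arrays each). All 3 lower runs also lie inside the high stretches, so neighbouring rows moved against the rest of their stretch there. Of junctions, 8 rows from JUC18001071.hg.1 to JUC18001078.hg.1 differed by 2.10 and 8 from JUC18001476.hg.1 to JUC18001483.hg.1 by 2.01. Groups did not overlap in 7 of the 8 rows of each. The shNS run median was 3.56 in the first, not far above the background controls' median, and 5.84 in the other. On the lower side, 5 rows from JUC18002173.hg.1 to JUC18002178.hg.1 differed by -3.02 and 4 from JUC18000833.hg.1 to JUC18000836.hg.1 by -1.59, with no overlap in any row.

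Gene names are at hand only for the transcript clusters of the authors' deposited table, which lists clusters that passed the authors' own limits. A transcript cluster gathers the probe sets of 1 transcribed locus, and the table gives the authors' average log2 signal of groups headed 5d and NS, without values per array. What 5d stands for is not explained in any source at hand, and it was read as shPLK1, the only group beside the control. Of the 27 clusters with chromosome 18 IDs 24 had a higher average in 5d and 3 a lower one, beside 185 of all 491 clusters (37.7%) higher. The table was selected on this contrast and holds no cluster that changed little. In all, 23 of the 27 carry a symbol, and 20 of the 22 symbols matched RefSeq (GRCh38.p14).

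The 3 lower clusters were those of COLEC12, a scavenger receptor of the collectin family, at 5.04 in 5d and 6.68 in NS, ZNF521, a zinc finger factor of progenitor cells, at 3.35 in 5d and 4.85 in NS, and CDH19, a type II cadherin of neural crest derivatives, at 3.87 in 5d and 5.35 in NS. By RefSeq order COLEC12 is near the start of the chromosome, ZNF521 follows GATA6, and CDH19 lies beyond the other named clusters.

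Higher averages were seen for genes of several kinds. Among regulators and signaling genes, GATA6, a zinc finger factor of endoderm and heart, averaged 7.73 in 5d and 6.66 in NS. MALT1, the paracaspase of NF-κB signaling, averaged 9.10 in 5d and 7.99 in NS, the highest level of the 27. The netrin receptor DCC averaged 6.86 in 5d and 5.41 in NS, and ALPK2, an atypical alpha kinase, 6.19 in 5d and 4.65 in NS. NEDD4L, a ubiquitin ligase of ion channels, averaged 5.96 in 5d and 4.93 in NS in a cluster classed as noncoding.

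Among transporters and membrane traffic, the neighbouring urea transporters SLC14A1 and SLC14A2 both had higher averages. SLC14A1 stood at 7.91 in 5d and 6.50 in NS, and SLC14A2 at 6.35 in 5d and 5.29 in NS. RAB27B, a small GTPase of vesicle secretion, averaged 8.73 in 5d and 7.66 in NS, and EPG5, which acts in autophagosome maturation, 6.74 in 5d and 5.67 in NS. DYNAP, named for its association with dynactin, had the largest increase of the 27 at 5.47 in 5d and 3.85 in NS, 3.07-fold. C18orf54, which lies next to it in the cluster numbering, averaged 8.08 in 5d and 7.07 in NS.

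Among the others were DTNA, a dystrobrevin of the dystrophin complex, at 5.62 in 5d and 4.14 in NS, SERPINB7, a clade B protease inhibitor, at 6.31 in 5d and 5.14 in NS, and CABYR, a calcium-binding protein of the sperm tail, at 7.25 in 5d and 6.10 in NS. The ankyrin repeat genes ANKRD29 and ANKRD30B averaged 7.29 and 4.34 in 5d, against 5.92 and 3.21 in NS. AC015933.2, a transcript described in the table as antisense to CDH2, averaged 4.65 in 5d and 3.61 in NS. The uncharacterized LOC284263 had a coding cluster at 4.06 in 5d and 3.03 in NS and a noncoding one at 4.34 in 5d and 3.04 in NS. The pseudogene CXADRP3 averaged 3.52 in 5d and 2.19 in NS, near the background controls' median of 2.98, and its similarity to the parent gene leaves its signal uncertain. The 4 clusters without a symbol, all noncoding, were higher in 5d by 1.24 to 1.46 log2 units.

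**Figure D5:**
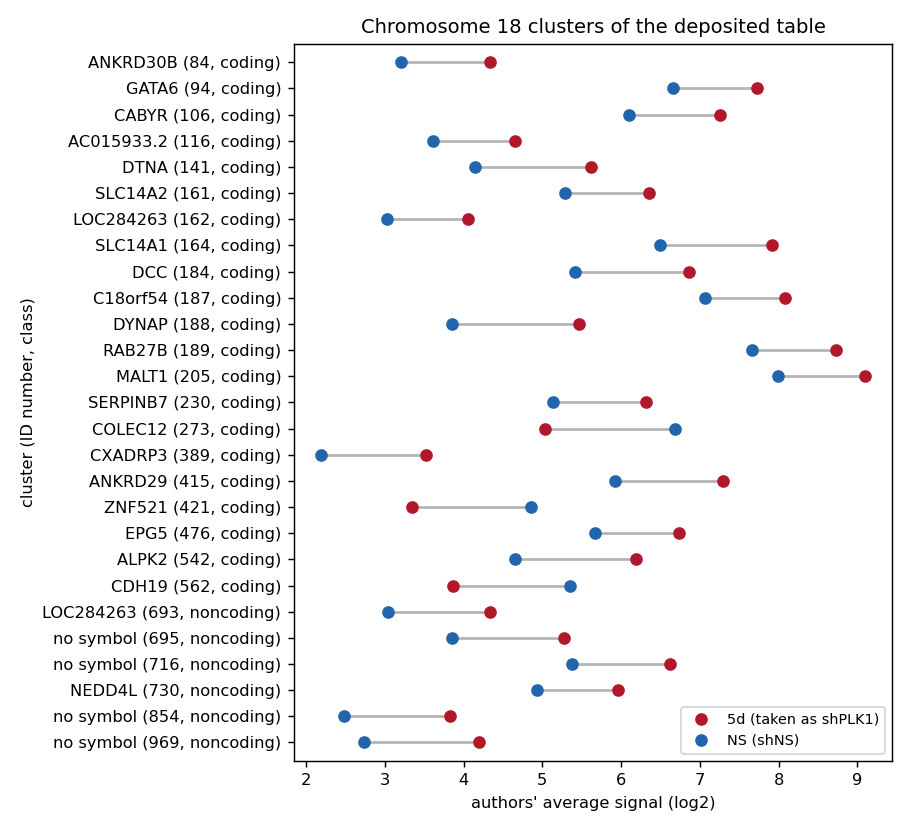
Authors' average log2 signal (x axis) in 5d, taken as shPLK1 (red), and NS (blue) for the 27 chromosome 18 clusters of the deposited table, ordered from top to bottom by cluster ID number (y axis). In 24 clusters the red point lies to the right, and in COLEC12, ZNF521 and CDH19 it lies to the left.

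The numbers of the clusters ran along the chromosome more than once. The 12 matched symbols with cluster numbers 84 to 230 followed the RefSeq gene order, and all 12 lie on the plus strand. The 7 matched symbols with numbers 273 to 562 followed the same order again from its start, 3 of them on the minus strand and 4 with no strand in the promoter table. Numbers of 693 and more belonged to 6 noncoding clusters. No cluster with a number under 84 is in the table. Of the matched symbols, COLEC12, CXADRP3 and ANKRD30B come before GATA6 in RefSeq order. COLEC12 was lower in 5d, and CXADRP3 and ANKRD30B were higher. At GATA6 or after it 15 of 17 were higher, beside 88.9% of all 27 clusters, so nothing about position is read from these counts. Whether exon and junction probe sets are numbered along the chromosome in the same way was not tested, since no positions were given for them.

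Of 55 chromosome 18 genes in 7 lists, 6 are in the deposited table. These are CDH19 of 11 classical and desmosomal cadherins, SERPINB7 of 10 clade B serpins, DCC of 10 genes of guidance, matrix and receptors, MALT1 of 4 genes of apoptosis and survival, and GATA6 and ZNF521 of 9 transcription factors. None of the 3 SMAD factors and none of 8 genes of mitosis and DNA synthesis, among them NDC80, SKA1 and TYMS, is listed. A gene that is not in the table has no value here, which is not a measured lack of change.

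Promoters are shown for the named clusters with the largest differences of the averages in each direction, among the 7 symbols with a single start in RefSeq (GRCh38.p14), so that the loci at both ends of the range can be seen. Each line gives the 250 bases before the start, 5′ to 3′ on the gene's strand, with CpG dinucleotides in capitals. ALPK2 (chr18:58629092-58629341, minus strand) and DCC (chr18:52339947-52340196, plus strand) were higher in 5d, and COLEC12 (chr18:500702-500951, minus strand) and CDH19 (chr18:66604091-66604340, minus strand) lower.
ALPK2: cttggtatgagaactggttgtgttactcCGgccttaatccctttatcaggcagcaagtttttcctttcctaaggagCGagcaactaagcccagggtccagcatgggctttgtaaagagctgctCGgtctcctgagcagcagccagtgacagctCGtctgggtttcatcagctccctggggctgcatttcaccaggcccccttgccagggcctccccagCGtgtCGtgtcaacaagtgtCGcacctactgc
DCC: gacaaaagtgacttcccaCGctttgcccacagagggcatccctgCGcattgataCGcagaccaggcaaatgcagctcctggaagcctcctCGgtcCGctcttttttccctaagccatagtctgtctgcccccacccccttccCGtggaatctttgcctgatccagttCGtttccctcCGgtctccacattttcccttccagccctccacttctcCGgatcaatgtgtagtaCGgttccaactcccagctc
COLEC12: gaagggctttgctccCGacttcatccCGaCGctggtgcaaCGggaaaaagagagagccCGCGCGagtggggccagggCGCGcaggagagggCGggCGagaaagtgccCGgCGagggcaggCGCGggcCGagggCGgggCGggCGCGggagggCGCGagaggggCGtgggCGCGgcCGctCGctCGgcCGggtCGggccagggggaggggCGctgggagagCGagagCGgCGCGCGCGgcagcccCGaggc
CDH19: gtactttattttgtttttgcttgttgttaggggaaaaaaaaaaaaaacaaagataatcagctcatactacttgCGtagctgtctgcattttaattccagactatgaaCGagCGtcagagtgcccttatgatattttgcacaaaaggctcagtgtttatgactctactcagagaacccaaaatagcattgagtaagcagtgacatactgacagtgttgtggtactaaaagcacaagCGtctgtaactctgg

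The 250 bases hold 7 CpG in ALPK2, 10 in DCC, 38 in COLEC12 and 4 in CDH19, where the median of 35116 RefSeq promoters is 11. Of all promoters, 2.65% held more CpG than COLEC12, while the shares were 56.3% for ALPK2, 50.3% for DCC and 65.7% for CDH19. Only COLEC12 thus lay far from the median, and these 4 windows do not set the higher loci apart from the lower ones. The motif TATAAA was not found on either strand of these 4 windows, and 10.7% of all promoters hold it in the same window.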

How the data were processed

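RNA of A375 cells was hybridized to 8 Affymetrix Human Transcriptome Arrays, 4 shPLK1 and 4 shNS, grouped by the sample titles. The deposited values are log2 signals per probe set, made by the authors with RMA (background correction, quantile normalization, summary over probes) in Affymetrix software. The submitters' processing notes name RMA too. The genome build is not given in the sources used here. Quantile normalization fixes each array's distribution, so shifts are relative to the other probe sets. The deposited table also holds the authors' group averages on the log2 scale, which were used, and the authors' fold changes and p-values, which were not.

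Exon and junction probe sets were fitted apart with limma 3.58.1 (R 4.3.3, group as the only term, default eBayes, no filter), and calls took a Benjamini-Hochberg adjusted p under 0.05. Shifts, bins and runs were computed in Python 3.11.15 with numpy 2.4.6 and pandas 2.3.3, and figures with matplotlib 3.10.9. Scripts were tested on simulated data. The number of arrays limits the precision.

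The chromosome, the level limit of 7, the lists and the tests were chosen with earlier results of these data known. Named probe sets are the 4 exons and 2 junctions with the largest difference each way among those with separate groups and a higher mean of at least 5, and the longest runs. Alternatives covered the level limit, reference, repeated rows, filters, centring, the replicate block and leaving out each array.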

Additional observations from a re-analysis of the deposited data

Results flagged for a closer look

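Over 72 groups of 4 arrays that were examined, 6 had 1 array set apart from the other 3 by Dixon's criterion, and chance gives about 1 in 20. All 6 concern array 3 of its group, and several share probe sets, so they are not independent. In shPLK1 array 3 the junction shift at level 7 or more was 0.28, against 0.18 to 0.20 in the other shPLK1 arrays. In exon bins 13 to 18 it was 0.32 in shPLK1 array 3, against 0.22 to 0.23. In junction bins 4 to 11 it was 0.39 there, against 0.26 to 0.27, and in junction bins 16 to 24 it was 0.31, against 0.22 to 0.23. In shNS array 3 the shift of junction bins 16 to 24 was -0.28, against -0.23 in each of the other shNS arrays. The median signal of the run from PSR18001912.hg.1 to PSR18001926.hg.1 was 7.02 in shNS array 3, against 7.49 to 7.57 in the other shNS arrays.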

How the results depend on the processing

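The chromosome 18 shift kept its direction under each alternative. For exons at level 7 or more it was 0.33 with a limit of 6 and 0.34 with the limit set on shNS arrays alone, a setting chosen after seeing the data, which gave 0.38 for junctions. Over exons of all levels the mean in place of the median gave 0.20. Leaving out 1 array at a time gave 0.35 to 0.39 for exons, 0.39 to 0.43 for junctions and 0.16 to 0.17 for exons of all levels. Counts of calls moved more. Higher exon calls were 346 at a fold above 2 and an unadjusted p under 0.05, 658 by an ordinary equal-variance test and 710 to 872 with 1 array left out. Lower exon calls were 85 by the ordinary test, 89 without probe sets under the median level and 115 to 124 with 1 array left out. Higher junction calls were 462 without probe sets under the median level, 429 when exons and junctions were fitted together, and 163 to 217 with 1 array left out. Lower junction calls were 89 at those limits, 33 by the ordinary test, 36 without dim probe sets and 43 to 51 with 1 array left out. The causes were not tested. Exon bins above 0 numbered 12 of 12 and 42 of 48 with other bin sizes, and 20 to 22 of 24 with 1 array left out. With the replicate number as a block, higher junction calls were 126 and higher exon calls 692. The shifts (0.38 for exons) cannot change with this block, since each number holds 1 array of each group. The numbers need not pair the arrays, as deviations of same-numbered arrays correlated at -0.14, 0.04, -0.06 and -0.10. The array has no depth, and probe sets near the background controls' median show little of any difference.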
